A study of Mus musculus with 12 samples.

Results

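The nuclear-encoded respiratory chain genes were taken as all genes whose symbol begins with Nduf, Uqcr, Atp5 or Cox followed by a number of 4 to 8, together with the Sdh genes of complex II. FPKM (fragments mapped, scaled by transcript length and by the library's total) was summed per symbol. There were 83 such symbols among the 14082 used here, out of 14499 in the tables. Of the 83, 82 had at least 1 FPKM in at least 4 libraries, as did 12962 genes in all. The 82 comprised 40 genes of complex I, 3 of complex II, 8 of complex III, 13 of complex IV and 17 of complex V, plus 1 row with the joined name Ndufb8,Sec31b. The locus of that row lies outside annotated Ndufb8, so it was counted with the members and placed in no complex. The 1 member below the filter was Ndufa4l2, a paralogue of the complex IV subunit Ndufa4. Values for Cox8a, Sdhd, Ndufs3 and for the respiratory chain genes of mitochondrial DNA were not analysed here.

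The cells were intestinal stem cells sorted on GFP from C57BL/6 mice, with 4 mice per genotype. Apc_KO mice were ApcFlox/Flox, Apc_HET mice ApcFlox/+ and Apc_WT mice Apc+/+, and every mouse, the Apc_WT controls included, carried Lgr5-CreERT2-ires-eGFP and was given 1 injection of tamoxifen and 5 days of tamoxifen diet. Cre is therefore driven by Lgr5 alone, cells were collected on day 15, and the labels give neither age, sex nor intestinal segment. The comparisons ask how the loss of both Apc copies, of 1 copy, and of the second copy bears on expression in these cells.

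The respiratory chain moves electrons from NADH through complex I, and from succinate through complex II, to ubiquinone, then through complexes III and IV to oxygen. The protons pumped on the way drive ATP synthase, complex V. Most subunits are encoded in the nucleus, and complex II wholly so. In the intestinal crypt, mitochondrial respiration is known to be active in Lgr5+ stem cells and in the enterocytes they give rise to. Apc holds together the machinery that degrades beta-catenin, and its loss activates Wnt signalling.

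Total FPKM per library ran from 391710 to 518428, both extremes being Apc_KO libraries, and libraries of 1 genotype correlated across genes at 0.913 to 0.981 on the log2 scale. Absolute depth is unknown. Apc averaged 13.8 ± 3.18 FPKM in Apc_KO, 11.01 ± 1.11 in Apc_HET and 8.89 ± 1.64 in Apc_WT (SD, n = 4 each), and a value for the whole gene cannot show the deletion of a floxed part. Lgr5 averaged 41.0 ± 16.8 FPKM in Apc_KO, 26.4 ± 4.52 in Apc_HET and 23.8 ± 4.35 in Apc_WT (SD, n = 4 each), so the gene that drives the reporter was present in every group. Of 14 stem cell markers, 7 were called higher and 3 lower in Apc_KO than in Apc_WT, where 27.9% and 17.7% of all genes were. Olfm4, a stem cell marker, was named after its values were seen. It had 81.7 to 702 FPKM in Apc_KO, 4693 to 7654 in Apc_HET and 5019 to 5782 in Apc_WT.

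Promoters are shown for 3 members that differ in their values below: Sdha of complex II, low in all Apc_KO libraries, Cox7a1 of complex IV, with the lowest fold change of any member, and Ndufa6 of complex I, with the highest. Ndufa6 was chosen after its values were seen. Each window holds 250 bases before and 50 bases after the annotated start, from RefSeq on GRCm38.p6, 5′ to 3′ on the gene's strand. Capitals mark the word CGCANGCG, on either strand, a core of the site bound by NRF1, a transcription factor known to act on many respiratory chain genes. Sdha (chr13:74350191-74350490, minus strand) held 3 such words, Ndufa6 (chr15:82354242-82354541, minus strand) held 1 and Cox7a1 (chr7:30183921-30184220, plus strand) held 0.
Sdha: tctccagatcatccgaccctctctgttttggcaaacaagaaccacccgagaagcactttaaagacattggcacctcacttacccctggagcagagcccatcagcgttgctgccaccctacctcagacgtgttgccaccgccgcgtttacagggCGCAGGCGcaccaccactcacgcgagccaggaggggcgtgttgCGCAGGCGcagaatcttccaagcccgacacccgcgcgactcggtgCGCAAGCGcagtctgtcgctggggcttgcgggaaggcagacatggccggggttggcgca
Ndufa6: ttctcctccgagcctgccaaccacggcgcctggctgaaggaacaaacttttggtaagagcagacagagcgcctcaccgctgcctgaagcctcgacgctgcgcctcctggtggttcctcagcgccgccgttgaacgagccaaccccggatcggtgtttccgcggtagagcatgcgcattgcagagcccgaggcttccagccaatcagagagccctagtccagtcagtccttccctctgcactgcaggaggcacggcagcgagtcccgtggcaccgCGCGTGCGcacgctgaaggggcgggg
Cox7a1: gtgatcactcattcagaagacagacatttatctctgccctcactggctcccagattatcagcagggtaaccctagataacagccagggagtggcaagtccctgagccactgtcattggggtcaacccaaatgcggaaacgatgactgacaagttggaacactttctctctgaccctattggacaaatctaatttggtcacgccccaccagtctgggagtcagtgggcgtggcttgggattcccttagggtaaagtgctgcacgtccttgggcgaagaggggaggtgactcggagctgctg

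Of 82 members tested, 24 were called lower and 0 higher in Apc_KO than in Apc_WT (limma, Benjamini-Hochberg adjusted p under 0.05), against 17.7% of all genes called lower and 27.9% called higher. The median log2 fold change was -0.49 over the members and 0.12 over all genes, and 76 of 82 members were below 0. All 3 genes of complex II were called lower, as were 3 of 8 in complex III and 9 of 17 in complex V. In complex I 7 of 40 were and in complex IV 2 of 13, shares near the 17.7% of all genes. Still, 35 of 40 genes of complex I and 12 of 13 of complex IV were below 0. The medians for complexes I to V were -0.41, -1.10, -0.56, -0.57 and -0.62. The libraries of both genotypes did not overlap in 18 members, all of them lower, a pattern shown by 16.0% of all genes, while 24.3% were higher without overlap. With median-of-ratios size factors, 35 members were called lower, against 21.8% of all genes, the median was -0.62 over the members, and that over all genes shifted to 0.01. In sorted bulk RNA, fewer cells of a type and less RNA per cell cannot be told apart.

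The 4 Apc_KO libraries differed widely among themselves. The members together took 1.64%, 2.71%, 2.17% and 3.25% of the total FPKM in Apc_KO replicates 1 to 4, between 2.92% and 3.45% in the Apc_HET libraries and between 3.08% and 4.22% in the Apc_WT libraries. By this share, Apc_KO replicate 4 lay within the ranges of both other genotypes. It lay above Apc_WT replicate 2, at 3.08%, but below Apc_WT replicates 1, 3 and 4. Of the FPKM of the 14082 symbols used here alone, the members took 1.74% to 3.41% in Apc_KO and 3.06% to 3.58% in Apc_HET. In Apc_WT they took 3.54% to 4.38%, so by that share Apc_KO replicate 4, at 3.41%, lay below every Apc_WT library. Set against the Apc_WT mean of each gene, the median log2 difference was -1.24, -0.32, -0.76 and 0.30 in Apc_KO replicates 1 to 4. It ran from -0.24 to -0.02 in Apc_HET and from -0.17 to 0.24 in Apc_WT, with replicate 4 the highest of the Apc_WT libraries. Among the Apc_KO libraries, replicate 1 was lowest for 72 of 82 members and replicate 4 highest for 73. Without Apc_KO replicate 4, 65 members were called lower in Apc_KO, against 19.1% of all genes, and the median was -0.75. Without Apc_KO replicate 1 there were 21, against 17.5% of all genes, with a median of -0.26, and without Apc_WT replicate 4 there were 17, or 20.7% of the members, against 15.7% of all genes.

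**Figure D1:**
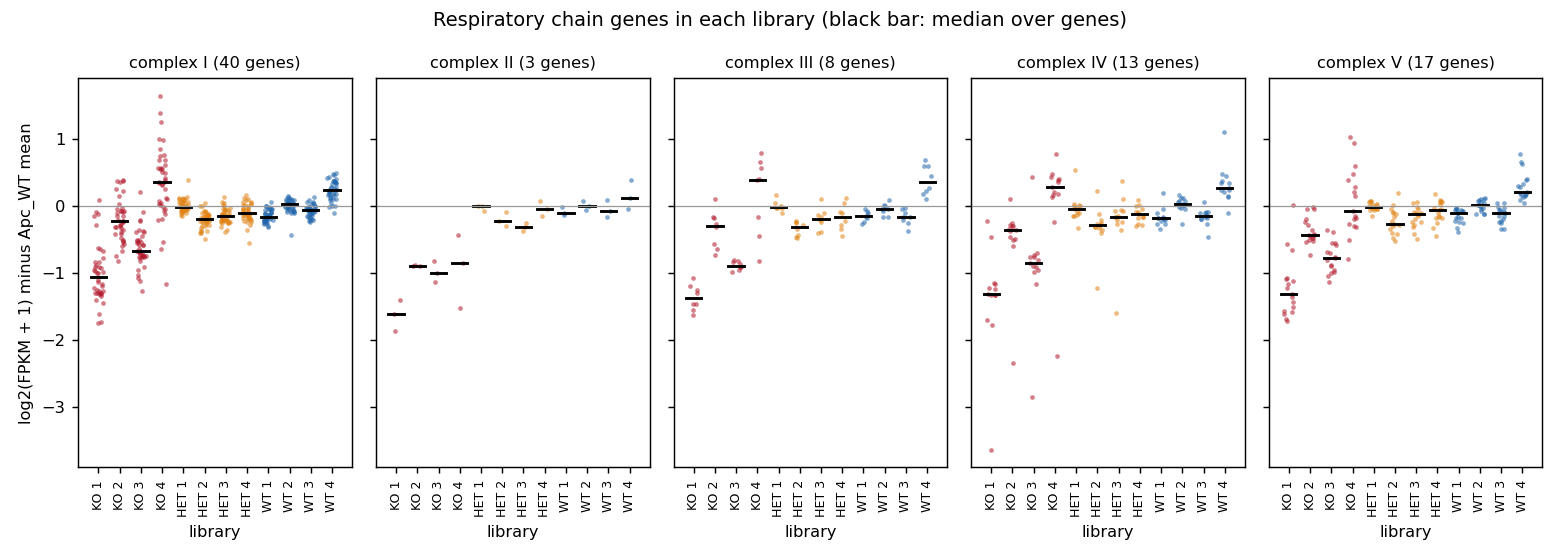
Each point is 1 gene in 1 library, as log2(FPKM + 1) minus that gene's mean in the 4 Apc_WT libraries (y axis), by library (x axis) and complex (panel), and black bars are medians over the genes. In complexes I, III and IV the bar of Apc_KO replicate 4 lies above 0 (0.36, 0.39 and 0.28) while those of the other Apc_KO libraries lie below it, and in complex II all 4 Apc_KO bars lie between -1.62 and -0.86.

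Complex II oxidises succinate and belongs to both the respiratory chain and the tricarboxylic acid (TCA) cycle. Its flavoprotein subunit Sdha, whose promoter is given above, had 93.5, 133, 140.5 and 85.9 FPKM in Apc_KO, 248, 233, 208 and 263 in Apc_HET and 247, 248, 264 and 241 in Apc_WT. No Apc_KO library reached the level of any other. The log2 fold change of Apc_KO against Apc_WT was -1.17 ± 0.16 (SE, adjusted p = 0.000104 by limma). Sdhb, the iron-sulfur subunit, had 50.5, 101, 84.2 and 137 FPKM in Apc_KO, 187, 151, 149.6 and 168 in Apc_HET and 169, 178, 165 and 243 in Apc_WT. Here too the Apc_KO libraries lay below all others, at -1.08 ± 0.25 (SE, adjusted p = 0.00364 by limma). Sdhc, a membrane anchor that takes part in binding ubiquinone, averaged 83.0 ± 18.4 FPKM in Apc_KO, 155 ± 16.4 in Apc_HET and 175 ± 13.3 in Apc_WT (SD, n = 4 each), a fall of -1.10 ± 0.16 in log2 against Apc_WT (SE, adjusted p = 0.000174 by limma).

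Complex I takes electrons from NADH. Of its 6 measured core subunits, which carry the catalysis, 2 fell in Apc_KO and 0 rose, where 17.7% and 27.9% of all genes did. Ndufs1, the core subunit that carries several iron-sulfur clusters, had 35.6, 53.2, 52.8 and 39.4 FPKM in Apc_KO, 86.8, 83.8, 75.5 and 100.4 in Apc_HET and 90.3, 92.2, 88.7 and 90.2 in Apc_WT. The Apc_KO libraries stood apart from all others, with a log2 fold change of -1.003 ± 0.14 against Apc_WT (SE, adjusted p = 9.1e-05 by limma). Ndufv1, the subunit that binds NADH, averaged 95.4 ± 19.6 FPKM in Apc_KO, 155 ± 8.39 in Apc_HET and 168 ± 12.7 in Apc_WT (SD, n = 4 each) and fell by 0.83 on the log2 scale against Apc_WT (adjusted p = 0.000614 by limma).

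Of 27 accessory subunits of complex I, which surround the core, 5 fell in Apc_KO and 0 rose, where 17.7% and 27.9% of all genes did. The 5 were Ndufb10, Ndufa9, Ndufa5, Ndufb5 and Ndufa10, with log2 fold changes from -1.01 to -0.58. Ndufa9 had 18.2, 35.7, 29.2 and 39.2 FPKM in Apc_KO, 57.1, 52.4, 48.8 and 55.6 in Apc_HET and 55.9, 58.7, 55.2 and 61.8 in Apc_WT (log2 fold change -0.95 ± 0.19 against Apc_WT, SE, adjusted p = 0.00124 by limma). All Apc_KO libraries lay below all others. Ndufb10 had 45.5, 85.9, 63.1 and 132 FPKM in Apc_KO, 141, 115, 117 and 139 in Apc_HET and 132, 150.2, 139.7 and 199 in Apc_WT. Its highest Apc_KO library reached the lowest Apc_WT library, and the log2 fold change was -1.01 ± 0.27 (SE, adjusted p = 0.00806 by limma).

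The highest fold change of any member belonged to the accessory subunit Ndufa6. It had 122, 137, 98.8 and 359.7 FPKM in Apc_KO, 116, 103, 109.7 and 105 in Apc_HET and 98.9, 125, 96.8 and 147 in Apc_WT. Apc_KO replicate 4 stood far above the other 3, which lay among the Apc_WT values. The log2 fold change was 0.44 ± 0.32 (SE, adjusted p = 0.293 by limma) and 0.04 without that library. Ndufa7, another accessory subunit, also named after its values were seen, had 134, 195, 116 and 389.9 FPKM in Apc_KO, against 123, 159.5, 127 and 201 in Apc_WT (adjusted p = 0.468 by limma). Again only Apc_KO replicate 4 lay above the Apc_WT range.

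None of the 7 Ndufaf genes was called in Apc_KO against Apc_WT, where 17.7% of all genes were called lower and 27.9% higher. These genes encode assembly factors that help build complex I and leave the finished complex. Their median log2 fold change was -0.29, and 5 of 7 were below 0. Ndufaf3, with the lowest level of the members that passed the filter, had 4.20, 3.51, 3.81 and 6.95 FPKM in Apc_KO, 4.85, 4.28, 4.48 and 4.80 in Apc_HET and 4.44, 4.76, 4.59 and 4.82 in Apc_WT (adjusted p = 0.836 for Apc_KO against Apc_WT by limma). Ndufa4l2, the member that missed the filter, was listed at 0 in all Apc_WT libraries and at 2.84 FPKM in Apc_KO replicate 4, and its locus spans 20.5% of the gene.

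Complex III passes electrons from ubiquinol to cytochrome c. Its 3 called members were the core proteins Uqcrc1 and Uqcrc2 and the Rieske iron-sulfur protein Uqcrfs1. Uqcrc1 had 94.1, 168, 152 and 158 FPKM in Apc_KO, 278, 234, 213 and 263 in Apc_HET and 253, 281, 274 and 318 in Apc_WT. Every Apc_KO library was below every other library, at a log2 fold change of -1.001 ± 0.18 against Apc_WT (SE, adjusted p = 0.000734 by limma). Uqcrc2 fell by 0.85 on the log2 scale (adjusted p = 0.0045 by limma). Uqcrfs1 averaged 74.2 ± 24.4 FPKM in Apc_KO, 104 ± 10.4 in Apc_HET and 121 ± 13.3 in Apc_WT (SD, n = 4 each) and fell by 0.75 against Apc_WT (adjusted p = 0.00742 by limma). The 5 small subunits that were not called, Uqcrq, Uqcr11, Uqcrb, Uqcrh and Uqcr10, had log2 fold changes between -0.63 and -0.31, and the lowest adjusted p among them, that of Uqcrq, was 0.149 by limma. The locus of Uqcrq spans 74.9% of the gene.

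Complex IV reduces oxygen, and its nuclear subunits include tissue isoforms. Cox7a1, the isoform known from heart and skeletal muscle, had 1.99, 6.32, 4.16 and 6.90 FPKM in Apc_KO, 28.5, 14.9, 11.3 and 32.4 in Apc_HET and 28.3, 29.9, 25.9 and 79.2 in Apc_WT. The highest Apc_KO library lay below the lowest Apc_HET library, and Apc_WT replicate 4 stood far above the rest of its group. The log2 fold change of Apc_KO against Apc_WT, -2.77 ± 0.43 (SE, adjusted p = 0.000224 by limma), was the lowest of all members. Cox7a2, the widely expressed isoform of the same subunit, had 89.3, 179, 118 and 261 FPKM in Apc_KO, 192, 171, 177 and 188 in Apc_HET and 189.9, 210.0, 193 and 272 in Apc_WT (adjusted p = 0.139 for Apc_KO against Apc_WT by limma). Cox7a1 made up 2.18% to 3.42% of the FPKM of both isoforms in Apc_KO, 6.00% to 14.7% in Apc_HET and 11.8% to 22.6% in Apc_WT, given as a description.

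Cox7a1 and markers of enterocytes, the absorptive cells of the villus, were both low in Apc_KO. All 16 enterocyte markers fell in Apc_KO against Apc_WT, and their summed level was 291 to 469 FPKM in Apc_KO, 751 to 2242 in Apc_HET and 1892 to 4779 in Apc_WT. Within Apc_HET, the libraries with less Cox7a1, replicates 2 and 3, also had the lower marker sums, 1009.6 and 751, and Apc_WT replicate 4 had the highest of both. Within Apc_KO, replicate 1 was lowest in both, but Cox7a1 was highest in replicate 4 and the marker sum in replicate 2. Within Apc_WT, Cox7a1 was lowest in replicate 3 and the marker sum in replicate 1. None of the enterocyte markers was at 0 in any library. Markers of enteroendocrine cells, which also all fell in Apc_KO, likewise had their highest sum in Apc_WT replicate 4, at 1328 FPKM. Of 4 tested muscle markers, 2 were called higher and 0 lower in Apc_KO against Apc_WT, where 27.9% and 17.7% of all genes were. The sum of the muscle markers was 26.1 to 53.6 FPKM in Apc_KO, 18.7 to 122 in Apc_HET and 22.1 to 60.4 in Apc_WT. The part of these cell types in the value of Cox7a1 was not tested.

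**Figure D2:**
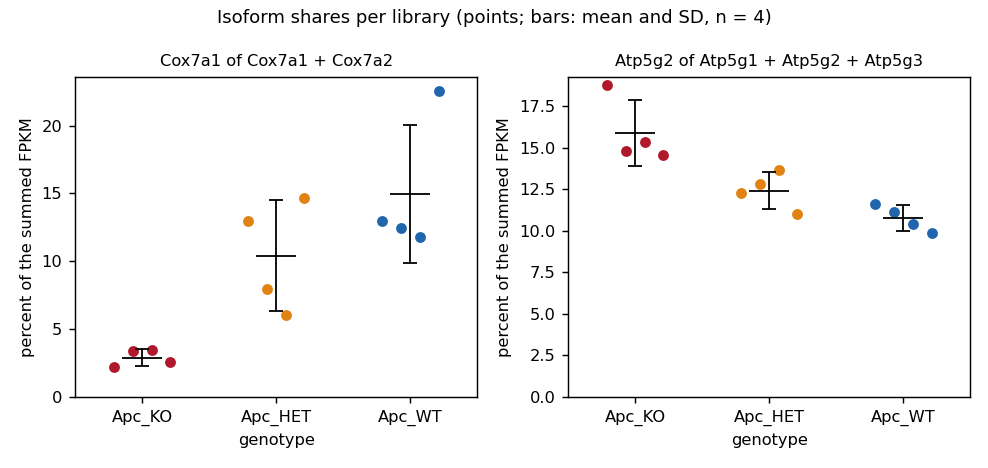
Share of an isoform in the summed FPKM of its subunit (y axis, percent) in each library by genotype (x axis), with mean and SD (n = 4). The Cox7a1 share lies between 2.18% and 3.42% in Apc_KO, below every Apc_HET and Apc_WT library, and the Atp5g2 share between 14.6% and 18.8% in Apc_KO, above every Apc_HET and Apc_WT library.

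Of the other complex IV genes, Cox6a1 alone was called. This widely expressed isoform of subunit 6A averaged 425 ± 172 FPKM in Apc_KO, 648 ± 60.0 in Apc_HET and 742 ± 90.6 in Apc_WT (SD, n = 4 each), a log2 fold change of -0.90 ± 0.28 against Apc_WT (SE, adjusted p = 0.0206 by limma, and 0.0516 without Apc_WT replicate 4). Cox4i1, the widely expressed isoform of subunit 4, had 409.7, 728, 543 and 1067 FPKM in Apc_KO, 931, 737, 822 and 761 in Apc_HET and 817, 932, 828 and 1176 in Apc_WT. Apc_KO replicates 1, 2 and 3 lay below all of Apc_WT and replicate 4 within its range (adjusted p = 0.152 by limma). Ndufa4, first assigned to complex I and now known as a subunit of complex IV, had 121, 218, 154 and 376 FPKM in Apc_KO, 245, 217, 233 and 249 in Apc_HET and 237, 282, 252 and 318 in Apc_WT (adjusted p = 0.212 for Apc_KO against Apc_WT by limma). Its Apc_KO replicates 1, 2 and 3 lay below all of Apc_WT and replicate 4 above all of it. Without Apc_KO replicate 4, Cox4i1, Ndufa4, Cox6b1, Cox7a2 and Cox7a2l were each called lower, with adjusted p-values between 0.00527 and 0.0143 by limma. Cox6b1 averaged 312 ± 141 FPKM in Apc_KO, 388 ± 43.9 in Apc_HET and 449 ± 104 in Apc_WT (SD, n = 4 each), and its testis isoform Cox6b2 averaged 7.81 ± 1.63, 8.99 ± 1.31 and 7.11 ± 1.04 FPKM in the same order. Neither was called. Cox7a2l, a factor in joining complexes III and IV into supercomplexes, had 133, 149.8, 111 and 318 FPKM in Apc_KO, against 178, 199.7, 152 and 217 in Apc_WT (adjusted p = 0.606 by limma).

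Complex V makes ATP in its F1 head, which is tied by a stalk to the Fo part in the membrane. Of 5 F1 subunits, 4 fell in Apc_KO against Apc_WT, where 17.7% of all genes did. The catalytic beta subunit Atp5b, the most abundant member, had 629, 1114, 924 and 962 FPKM in Apc_KO, 1425, 1278, 1257 and 1451 in Apc_HET and 1318, 1321, 1349 and 1488 in Apc_WT. The genotypes Apc_KO and Apc_WT did not overlap, and the log2 fold change was -0.62 ± 0.23 (SE, adjusted p = 0.047 by limma). That call was lost when any 1 library other than Apc_KO replicates 2 and 4 was left out, with adjusted p-values up to 0.102. The alpha subunit Atp5a1 had 373, 582, 541 and 455 FPKM in Apc_KO, 798, 728, 668 and 821 in Apc_HET and 774, 778, 816 and 812 in Apc_WT, again without overlap (log2 fold change -0.72 ± 0.19, SE, adjusted p = 0.00686 by limma). The gamma subunit Atp5c1 fell by 0.68 on the log2 scale, and the delta subunit Atp5d, whose deposited locus spans 59.4% of the annotated gene, fell by 0.63. Atp5e, the small epsilon subunit, named after its values were seen, had 92.8, 247, 149.6 and 517 FPKM in Apc_KO, against 212, 234, 213 and 398 in Apc_WT, and was not called (adjusted p = 0.588 by limma).

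Of 10 subunits of Fo and the stalk, 4 fell: Atp5o, which joins the stalk to F1 (log2 fold change -0.86 ± 0.27, SE, adjusted p = 0.0198 by limma, and 0.0568 without Apc_WT replicate 4), Atp5f1, and 2 of the 3 genes for subunit c of the membrane ring. These genes, Atp5g1, Atp5g2 and Atp5g3, are known to encode the same mature protein. Atp5g3, the most abundant of them, had 219, 427, 321 and 506 FPKM in Apc_KO, 559, 471, 441 and 559 in Apc_HET and 556, 622, 576 and 762 in Apc_WT, a log2 fold change of -0.83 ± 0.25 against Apc_WT (SE, adjusted p = 0.0155 by limma). Atp5g1 averaged 18.3 ± 7.08 FPKM in Apc_KO, 26.9 ± 3.38 in Apc_HET and 31.3 ± 3.51 in Apc_WT (SD, n = 4 each, adjusted p = 0.0139 for Apc_KO against Apc_WT by limma), from a locus that spans 4.49% of the annotated gene. Atp5g2 had 52.8, 78.0, 61.2 and 90.7 FPKM in Apc_KO, 82.1, 72.8, 73.2 and 72.5 in Apc_HET and 76.4, 81.8, 70.8 and 87.0 in Apc_WT, and was not called (adjusted p = 0.349 by limma). Its share in the FPKM of the 3 genes was 18.8%, 14.8%, 15.4% and 14.6% in Apc_KO, 10.97% to 13.6% in Apc_HET and 9.85% to 11.6% in Apc_WT, given as a description. Atp5sl carries the name of the complex and was counted with it, but is known in human cells as an assembly factor of the complex I membrane arm. It fell by 0.61 on the log2 scale (adjusted p = 0.000925 by limma) and was not among the 7 assembly factors of complex I given above.

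**Figure D3:**
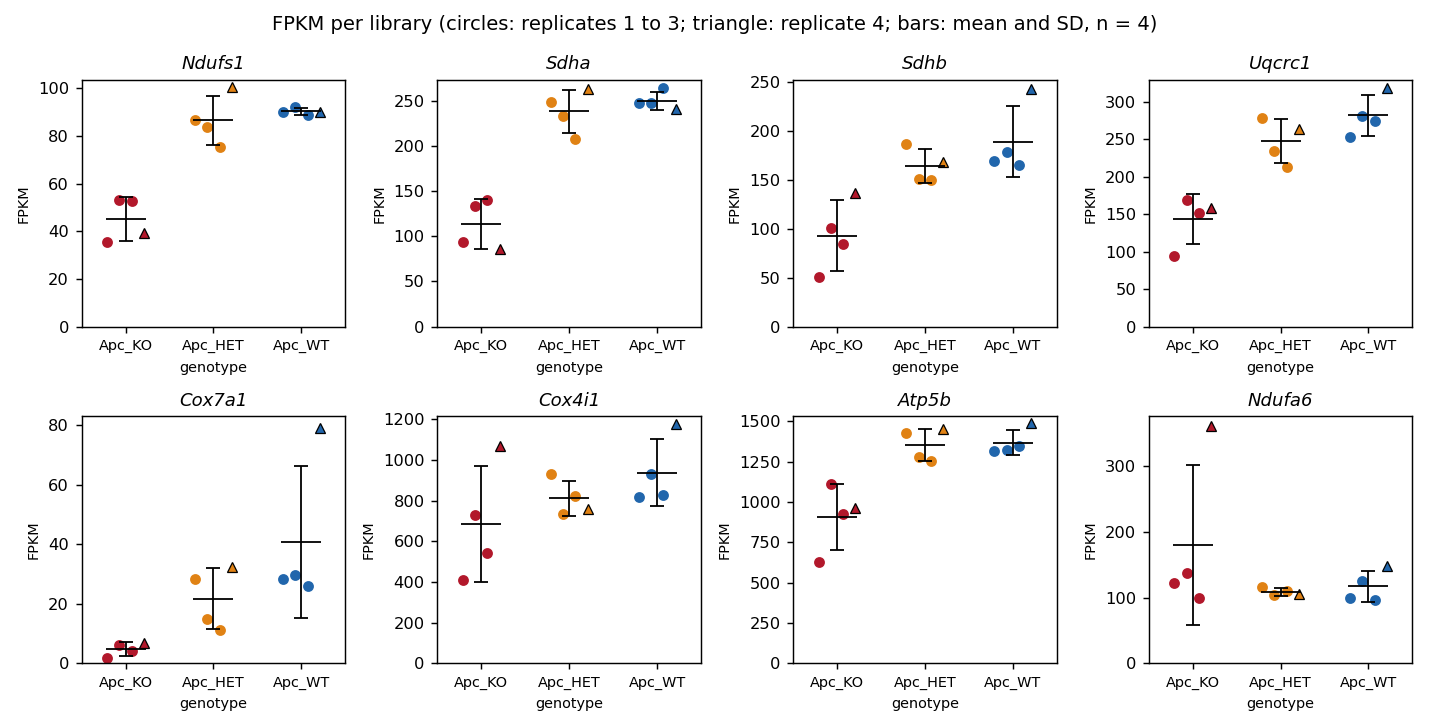
FPKM (y axis, from 0) of 8 members in each library by genotype (x axis), with circles for replicates 1 to 3, triangles for replicate 4, and mean and SD (n = 4). Ndufs1, Sdha, Sdhb, Uqcrc1, Cox7a1 and Atp5b lie below every Apc_WT library in all Apc_KO libraries, whereas in Cox4i1 and Ndufa6 the Apc_KO triangle (1067 and 359.7 FPKM) lies far above the Apc_KO circles.

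The calls differed with transcript length. The members had a median transcript length of 809 bases, against 2827 bases over all genes tested. In Apc_KO replicate 4 short transcripts read high: among genes other than the members, the median log2 difference from the Apc_WT mean was 0.86 for the 279 genes of up to 700 bases and 0.06 for the 9924 genes over 1500 bases. In Apc_KO replicates 1, 2 and 3 the same medians were -0.32, 0.19 and -0.19 for the short genes and 0.13, 0.14 and 0.16 for the long ones. Apc_WT replicate 4 showed the tilt of Apc_KO replicate 4 to a lesser degree, with 0.21 for short and -0.01 for long genes. Among the members, Apc_KO replicate 4 lay above the highest Apc_WT library in 24 of 34 genes of up to 700 bases and in 3 of 19 genes over 1500 bases, and below the lowest Apc_WT library in 2 and in 11 of them.

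Split by length, 12 of 19 members over 1500 bases were called lower in Apc_KO against Apc_WT, 9 of 29 between 700 and 1500 bases, and 3 of 34 up to 700 bases, while the medians were -0.63, -0.54 and -0.42. Over all genes tested the share called lower was 18.2%, 16.8% and 17.3% in the same classes. When the trend against transcript length was removed from each library, an adjustment chosen after seeing the data, 61 of 82 members were called lower and 0 higher, against 25.0% and 25.6% of all genes, and the median was -0.61. By class, 15 of 19 long members, 21 of 29 and 25 of 34 short ones were then called lower. By complex, there were 26 of 40 in complex I, 3 of 3 in complex II, 7 of 8 in complex III, 11 of 13 in complex IV and 13 of 17 in complex V. Ndufa6, at 0.32 (adjusted p = 0.0921 by limma), Ndufa7 and Ndufaf6 stayed above 0, uncalled. The adjustment assumes that the trend is not itself an effect of the genotype, which was not tested.

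**Figure D4:**
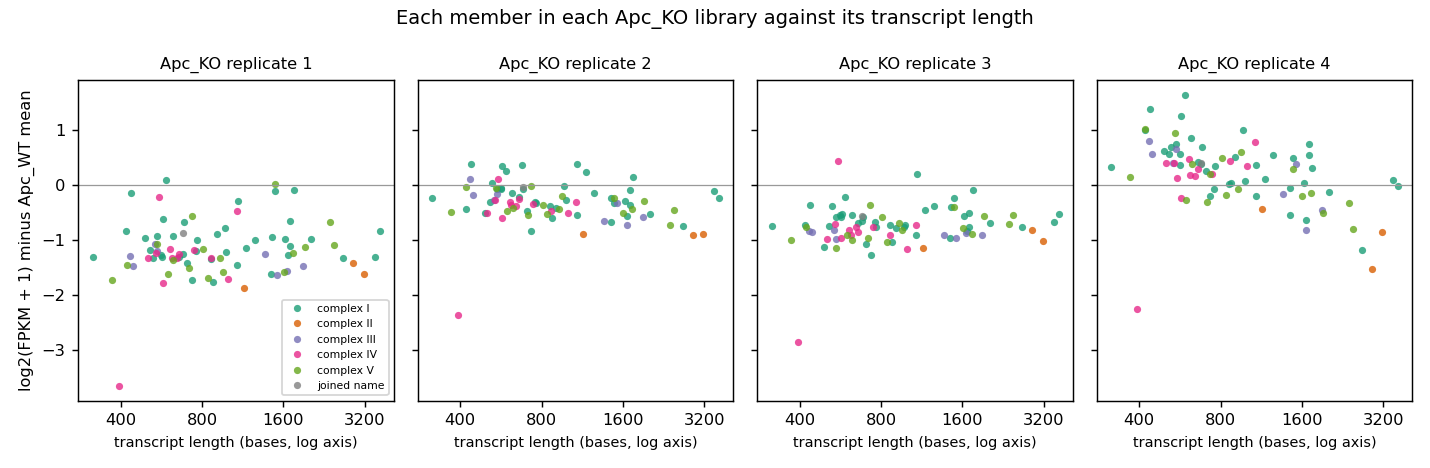
Each point is 1 member in 1 Apc_KO library (panel), as log2(FPKM + 1) minus its Apc_WT mean (y axis) against transcript length in bases (x axis, log scale), coloured by complex. In replicate 4 the points slope down with length (Spearman's rho -0.57 over the 82 members, a description), and the 3 genes of complex II lie below 0 in every panel.

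**Figure D5:**
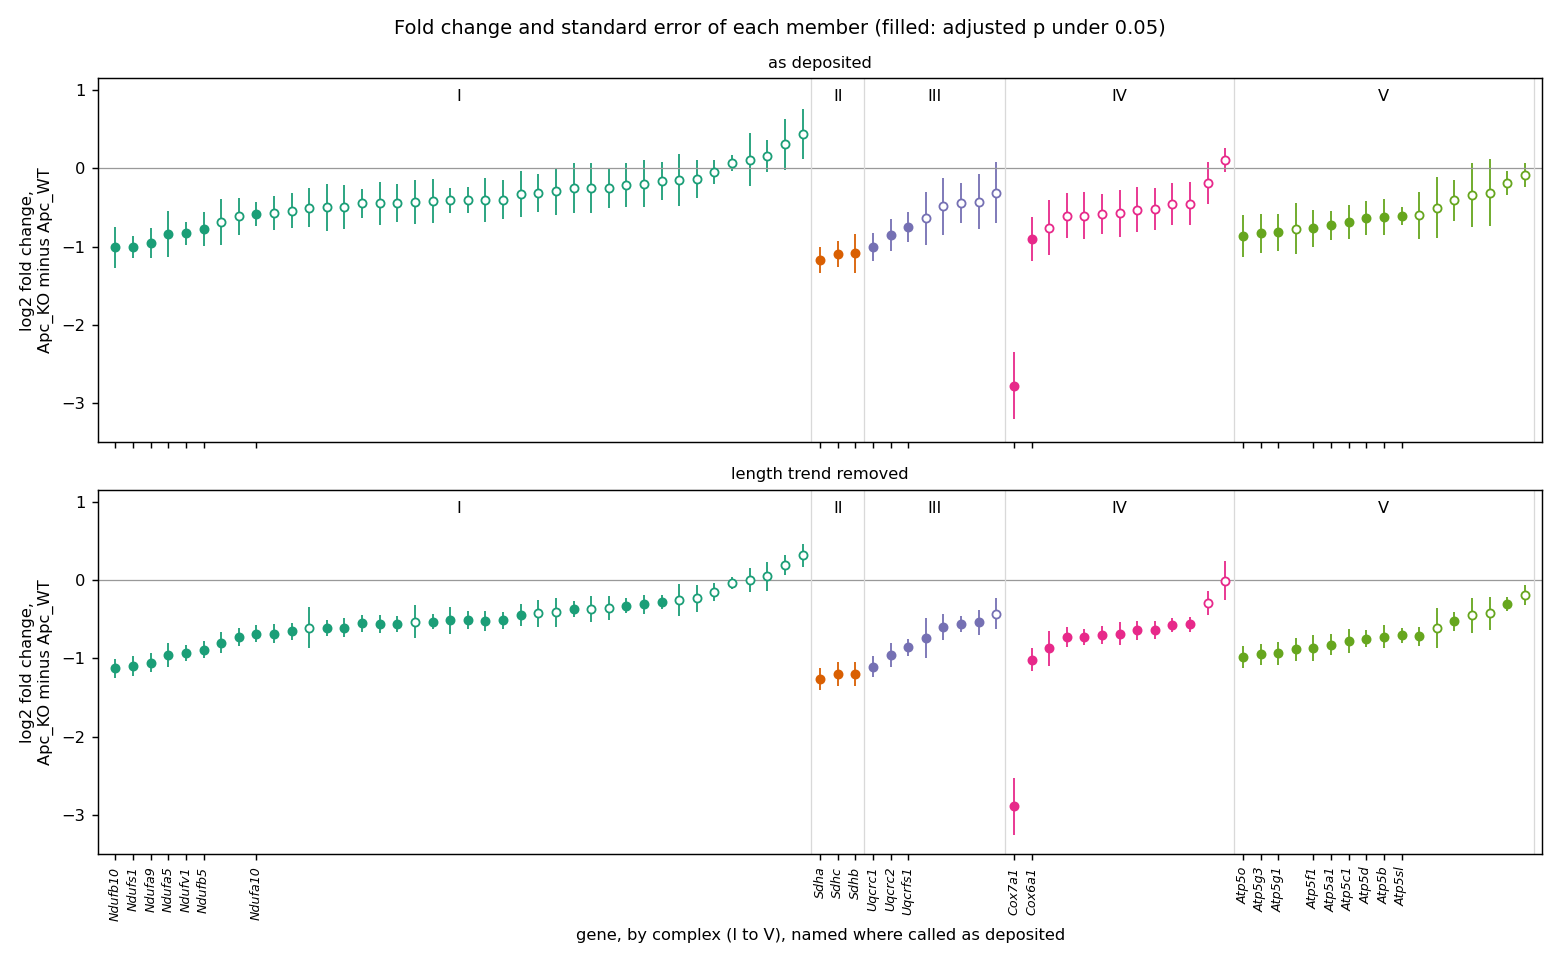
Log2 fold change of Apc_KO minus Apc_WT with its standard error (y axis) for each member, ordered by complex (x axis, with names for the members called as deposited), as deposited (upper panel, 24 filled points with adjusted p under 0.05, including Ndufs1, Sdha and Cox7a1) and with the length trend removed (lower panel, where the standard errors are smaller and 60 of the 61 calls belong to the 5 complexes). Cox7a1 lies far below all others in both panels, at -2.77 and -2.89.

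In Apc_HET against Apc_WT no member was called in either direction (limma), as was no gene at all (0.00% called), and 0 of 82 members had an unadjusted p under 0.05, against 561 of 12962 genes. The median log2 fold change was -0.13 over the members and 0.07 over all genes, and 76 of 82 members were below 0. By complex the medians were -0.11, -0.18, -0.18, -0.19 and -0.15 for complexes I to V. No member had all Apc_HET libraries below or above all Apc_WT libraries, against 0.617% and 5.46% of all genes. The members of smallest unadjusted p, by limma, were Cox6b2 (log2 fold change 0.30), Cox7a1 (-0.84) and Atp5g3 (-0.31), each with an adjusted p of 0.987. The standard error of this difference was 0.43 for Cox7a1, the largest of any member, 0.16 for Sdha and 0.14 for Ndufs1. With size factors the median was -0.21 over the members and -0.00089 over all genes, and 80 of 82 members were below 0. With the length trend removed these medians were -0.13 and -0.0041, and 76 of 82 members were below 0. The small fall was smaller still without Apc_WT replicate 4. Without replicates 4 of Apc_KO and Apc_WT, an alternative added after seeing the data, the median was -0.04 over the members and 0.06 over all genes. Then 61 of 82 members were below 0.

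In Apc_KO against Apc_HET, which shares its Apc_KO libraries with the first comparison, 16 members were called lower and 0 higher (limma), against 18.9% and 22.8% of all genes. At 19.5% of the members, the share lower was near that of all genes. The median was -0.34 over the members and 0.04 over all genes, and 75 of 82 members were below 0. The libraries did not overlap in 13 members, all lower in Apc_KO, against 18.0% of all genes lower and 21.4% higher without overlap. The calls comprised 7 of 40 in complex I, 3 of 3 in complex II, 3 of 8 in complex III, 1 of 13 in complex IV and 2 of 17 in complex V. In complexes I, IV and V the share called was below the 18.9% of all genes. The called members of largest size were Cox7a1 at -1.94 ± 0.43 (adjusted p = 0.00322), Sdha at -1.09 ± 0.16 (adjusted p = 0.000194) and Ndufs1 at -0.94 ± 0.14 (adjusted p = 0.000176), all SE and by limma. With size factors 23 members were called lower, against 20.5% of all genes. With the length trend removed 51 were called lower, against 23.8% of all genes, and 1 higher, Ndufa7 (adjusted p = 0.0249 by limma), against 24.8% of all genes.

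Other mitochondrial genes were read from lists beside the members. Of all genes, 17.7% were called lower and 27.9% higher in Apc_KO against Apc_WT, and 18.9% and 22.8% against Apc_HET. Of 25 respiratory chain genes outside the name patterns, such as cytochromes and assembly factors, 10 fell and 1 rose in Apc_KO against Apc_WT, with a median of -0.35. The largest falls were those of Lyrm7 (-1.61 ± 0.34, SE, adjusted p = 0.00224 by limma) and Bcs1l (-1.04 ± 0.17, SE, adjusted p = 0.000301 by limma), both needed to install the Rieske protein in complex III, and Higd1a, a small protein of complex IV, rose by 0.53 (adjusted p = 0.0494 by limma). Of 19 genes of pyruvate oxidation and the TCA cycle, 15 fell and 0 rose, with a median of -0.59. Among them Ogdh, a subunit of the oxoglutarate dehydrogenase complex, fell by 1.35 ± 0.20 on the log2 scale (SE, adjusted p = 0.000137 by limma) and Idh3b, a subunit of isocitrate dehydrogenase, by 1.09 ± 0.15 (SE, adjusted p = 0.000112 by limma). Of 17 genes of import, membranes and chaperones, 5 fell, led by the outer membrane channel Vdac1 (-0.58) and the matrix chaperone Hspa9 (-0.57), and Timm44, an import subunit, rose by 0.37. Against Apc_HET the same 4 lists, biogenesis regulators included, had 9, 13, 6 and 6 genes lower and 1, 0, 2 and 0 higher in Apc_KO, in the order respiratory chain, TCA cycle, import and regulators.

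Of 15 regulators of mitochondrial transcription and biogenesis, 7 fell in Apc_KO against Apc_WT and 0 rose, where 17.7% and 27.9% of all genes did. Their median log2 fold change was -0.28. Ppargc1b, a coactivator of such genes, had 1.20, 1.58, 1.85 and 0.883 FPKM in Apc_KO, 10.1, 9.11, 8.01 and 9.66 in Apc_HET and 9.40, 8.67, 9.84 and 9.24 in Apc_WT. The Apc_KO libraries lay far below all others (log2 fold change -2.13 ± 0.13, SE, adjusted p = 1.79e-07 by limma). Esrra, the nuclear receptor ERR alpha, averaged 53.3 ± 9.21 FPKM in Apc_KO, 110.3 ± 14.3 in Apc_HET and 126 ± 13.6 in Apc_WT (SD, n = 4 each), a log2 fold change of -1.24 ± 0.14 against Apc_WT (SE, adjusted p = 2.14e-05 by limma). Nrf1 and Gabpa, further activators of respiratory chain genes named after their values were seen, had log2 fold changes of 0.02 and -0.15 and were not called.

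RefSeq promoter windows were found for 69 members, 75 windows in all. The NRF1 word CGCANGCG stood in 32 of them (42.7%), against 8.21% of all 32851 windows. The ETS word CCGGAAG, bound by the GABP factor among others, stood in 18.7% against 8.86%, the YY1 word AAGATGGCG in 12% against 1.40% and the ERR word TCAAGGTCA in 1.33% against 0.423%, on either strand. The ETS word ends in the letters with which the YY1 word begins, so the same bases can count for both. Of 28 tested members with the NRF1 word, 10 were called lower in Apc_KO against Apc_WT, with a median of -0.45. Of 41 members without it 10 were, with a median of -0.49. The share called lower was 17.7% over all genes. The only member with the ERR word was Atp5g3. Cox7a1 had none of these words in its window, and a missing word says only that these letters are not there.

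Markers of other cells differed in how they moved with the genotype. In Apc_KO against Apc_WT, 17.7% of all genes were called lower and 27.9% higher. All 8 goblet cell markers and all 9 tested enteroendocrine markers fell along with the 16 enterocyte markers. Of 6 tested tuft cell markers 4 fell and 1 rose, and of 6 tested Paneth cell markers 2 fell and 1 rose. The summed Paneth markers were 1554 to 6620.3 FPKM in Apc_KO, 3842 to 6905 in Apc_HET and 5487 to 10031 in Apc_WT. The 7 tuft markers found summed to 64.0 to 119.8 FPKM in Apc_KO, 24.5 to 48.4 in Apc_HET and 35.0 to 48.3 in Apc_WT. Over the 6 tested tuft markers the median log2(FPKM + 1) went the other way. It was 1.04 to 1.92 in Apc_KO, 2.36 to 3.05 in Apc_HET and 2.73 to 2.93 in Apc_WT. Of 18 genes of S phase and mitosis 2 fell and 0 rose, a smaller share than the 17.7% of all genes called lower. The summed goblet markers were 203 to 478 FPKM in Apc_KO, 1612 to 1800.2 in Apc_HET and 1486 to 2257 in Apc_WT. The sum of the S phase and mitosis genes was 401, 1036, 1060.3 and 562 FPKM in Apc_KO replicates 1 to 4, 842 to 935 in Apc_HET and 697 to 1022 in Apc_WT, so the 2 Apc_KO libraries at the ends of the members' range had the lowest values. Of 4 tested markers of stroma and endothelium 3 rose and 1 fell, and Vim, named after its values were seen, is a gene of mesenchymal cells with 115 to 134 FPKM in Apc_KO, 11.5 to 82.5 in Apc_HET and 6.75 to 18.7 in Apc_WT. Of 4 tested leukocyte markers 1 fell, and Ptprc, the pan-leukocyte gene, was at most 1.10 FPKM in every library. Among the Apc_HET libraries, the 2 with the lower enterocyte sums, replicates 2 and 3, also had the lower member medians, in each complex. The enterocyte sums were 751 and 1009.6 FPKM in Apc_HET replicates 3 and 2, and 1932 and 2242 FPKM in replicates 1 and 4. Over all members tested, the median log2 difference from the Apc_WT mean was -0.17 and -0.24 in Apc_HET replicates 3 and 2. It was -0.02 and -0.11 in replicates 1 and 4. For complex II the same medians were -0.32 and -0.23, then -0.01 and -0.05. Over all members the order within these pairs differed, as replicate 3 had the lowest sum and replicate 2 the lowest median. In Apc_KO replicates 1 to 4 the enterocyte sums were 291, 469, 335 and 450 FPKM. The medians over all members there were -1.24, -0.32, -0.76 and 0.30. Apc_KO replicate 4 had a lower sum than every Apc_HET and Apc_WT library but a higher median than any of them. The part of these cells in the members' levels was not tested.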

How the data were processed

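RNA of sorted Lgr5-GFP+ cells was measured in 12 libraries, 4 per genotype. The deposited tables give FPKM per locus, and per the submitters' processing notes Bowtie, TopHat, Cufflinks and Cuffdiff were used on mm10 (GRCm38), whose versions and settings are not given in the sources used here. How reads shared with processed pseudogene copies were counted is not given either. FPKM was summed per symbol (2693 symbols had several loci). Symbols whose loci differ between tables (295) or with a failed estimate (122) were left out. Genes with at least 1 FPKM in at least 4 libraries were tested with limma 3.58.1 (R 4.3.3) on log2(FPKM + 1) in 1 fit of all 12 libraries, with a trend in the variance and Benjamini-Hochberg adjustment over 12962 genes. Fold changes on this scale understate those of low genes. The fitting was tested on simulated data. FPKM carries no counts, so no counting interval can be given. The members, gene lists and tests were chosen with earlier results of these data known.

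Values were given for up to 3 called members in each direction per complex, up to 3 per further comparison (or the 3 of smallest p), the paired isoforms, the catalytic subunits and the members at the filter's edge. A member outside this rule is said to be chosen on its values. The values of 1 member are not reported here. Alternatives were size factors, TPM, another pseudocount or filter, single-locus symbols, a fit of 2 genotypes, a replicate block, each library left out and, added after seeing the data, removal of the trend on transcript length (loess, span 0.5) and leaving out replicates 4 of both Apc_KO and Apc_WT.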

Additional observations from a re-analysis of the deposited data

Results flagged for a closer look

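In 4 of 93 groups of 4 libraries examined, 1 library stood far from the other 3 by Dixon's criterion, which chance meets in about 1 of 20 groups. Sdhb had 243 FPKM in Apc_WT replicate 4, against 178 in the next highest Apc_WT library. Cox7a1 had 79.2 FPKM in Apc_WT replicate 4, against 29.9 in the next. Atp5g2 had 82.1 FPKM in Apc_HET replicate 1, against 73.2 in the next. The median log2(FPKM + 1) over complex I was 6.50 in Apc_HET replicate 1, against 6.37 in the next.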

How the results depend on the processing

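The count of members lower in Apc_KO than in Apc_WT was 24 of 82 (where 17.7% of all genes were called lower, and so for each share in parentheses here), and it was 61 with the length trend removed (25.0%), 63 with size factors and length trend removed together (25.1%), and 53 without replicates 4 of both genotypes (17.3%), these 3 alternatives being chosen after seeing the data. The count against Apc_HET was 16 (18.9%), and it was 26 with TPM (16.5%), 10 in a fit of only the 2 genotypes compared (16.2%), 51 with the length trend removed (23.8%), 51 with size factors as well (23.6%) and 51 without replicates 4 of Apc_KO and Apc_WT (19.8%). In both fits with the length trend removed, 1 member was higher against Apc_HET. Leaving out 1 library at a time gave 17 (15.7%, without Apc_WT replicate 4) to 65 (19.1%) members lower against Apc_WT and 11 (16.0%, without Apc_HET replicate 1) to 51 (19.8%) against Apc_HET, both highest without Apc_KO replicate 4. Apc_KO minus Apc_WT of Cox6b2, 0.11, became -0.00052 with size factors and -0.0071 with the length trend removed, and that of Ndufaf3, -0.05, ran from -0.23 to 0.047 as libraries were left out, with 0.047 without Apc_KO replicate 2 and 0.016 without Apc_KO replicate 3. The cause was not tested. Replicates share only a number: over 12 same-numbered pairs the correlation of deviations ran from -0.20 to 0.18, 3 being over 0.1 and 3 best with their own number. With the replicate number as a block, 24 members were lower against Apc_WT (17.1%) and 18 against Apc_HET (18.2%). Depth is unknown, so the precision of low members such as Ndufaf3 cannot be given.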
